A study of Mus musculus with 8 samples.

Results

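The hippocampus of mice lacking Tet1 (KO) was compared with that of wild-type (WT) mice on 2 two-colour microarrays. The comparison uses the 4 samples that the labels name WT1, KO1, WT2 and KO2 Hippocampus, out of 8 samples in the series. The other 4 are the same genotypes in cortex, and serve here only to estimate the spread and to test whether a difference in hippocampus differs from that in cortex. All mice were naive, kept in standard housing and of the background labelled 129 C57BL6, and no other allele, agent or age is given. Each array carried a WT sample in the dye Cy3 and the KO sample of the same number in Cy5, made from 0.5 µg of total RNA each. Because KO was always in Cy5, a dye effect and the genotype cannot be told apart within an array. The labels do not say whether the samples come from separate animals, so a p-value here covers the spread among these samples alone, part of which may be technical. They also do not say which part of Tet1 was removed.

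The TET enzymes, of which Tet1 is the founding member, convert 5-methylcytosine in DNA to 5-hydroxymethylcytosine, a step towards removal of the methyl group. The mark is abundant in neurons. In hippocampal neurons, synaptic activity switches on immediate-early genes such as Fos, Arc and Npas4 within minutes, and their products take part in lasting changes at synapses. The hippocampus lies beside the choroid plexus and carries a covering of leptomeninges, the thin fibroblast-rich membranes of the brain surface, so dissected tissue can hold some of both.

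Values are deposited log2 levels per sample, and the KO minus WT difference on each array is a log2 ratio. A gene is represented by its brightest probe, and 19904 of 31539 gene names were tested, those whose probe was well above background on both arrays in WT or in KO. Spots well above background made up 51.7% and 49.7% of the WT channels and 66.6% and 67.2% of the KO channels of the hippocampus arrays. Of the tested genes, 3957 were not well above background in WT but were on both arrays in KO, and 2 were the reverse, and no spot was saturated. Markers of the hippocampal fields went with the tissue label: in WT, 9 of 12 markers of CA2 and CA3 neurons, 8 of 14 of dentate granule cells and 5 of 8 of CA1 neurons were higher in both hippocampus samples than in both cortex samples. All 14 striatal markers tested were lower in hippocampus. Precision is limited throughout by the small number of arrays. The hippocampus sample WT2 stood apart from the other 3 in markers of choroid plexus, whose mean log2 level was 12.39 there, 9.16 in WT1, 9.26 in KO1 and 9.55 in KO2.

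The deposited data did not show a clear loss of the targeted transcript. The brightest of 3 Tet1 probes (chromosome 10, 62274448 to 62274507, mm9) had log2 levels of 9.13 in WT1 and 8.94 in WT2, and of 8.97 in KO1 and 8.89 in KO2. The KO and WT values overlap. The mean difference was -0.10 ± 0.06 (SE, n = 2 arrays; adjusted p = 0.334 in limma). The other 2 Tet1 probes gave ratios of 0.11 and 0.16, and of -0.13 and -0.14. As the removed part is not stated, these probes may lie outside it, and they do not check the labels. Tet2 and Tet3, the other members of the family, had ratios of 0.09 and 0.08, and of 0.10 and 0.05. This Tet3 probe was not well above background in WT, and the sign for Tet3 turned under 2 of the alternatives. The other Tet3 probes gave -0.10 and -0.29, and 0.17 and 0.05. For Tet2 the other probes gave 0.14 and 0.02, and 0.06 and 0.19. None of the 30 tested genes for DNA methylation, demethylation and binding of methylated DNA passed the test. The uracil glycosylase Ung had ratios of 0.32 and 0.40, Mbd3, a subunit of the NuRD repressor complex, -0.21 and -0.19, and Gadd45g, which promotes demethylation and is also activity-induced, -0.45 and -0.57.

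KO and WT samples differed in 15 genes, 5 higher and 10 lower in KO (0.0754% of the genes tested, 0.0251% higher and 0.0502% lower; adjusted p under 0.05 in limma, and 4960 genes had an unadjusted p under 0.05). Gdpd3 and Sv2c were tested only because they were well above background in KO. Zfp874a and A430093F15Rik were tested only because they were so in WT. With probes well above background in every hippocampus sample, 2 genes were called higher and 6 lower. Zfp874a, of a zinc finger gene cluster on chromosome 13, fell most. The largest rise was in Mtap1b, now Map1b, which binds microtubules in growing axons. The activity-induced factor Npas4 fell. So did Slc6a13, a GABA transporter, and Gjb2, the gap junction protein connexin 26, both typical of leptomeningeal cells. For all 15 genes, the KO samples did not overlap the WT samples, as for 32.5% of all genes on the high and 18.1% on the low side. In 13 of the 15 the KO value also lay on the same side of WT on both cortex arrays, and the exceptions were Slc6a13 and Gjb2. KO was in Cy5 on the cortex arrays too, and those arrays entered the estimate of the spread. The count is therefore not independent of the test, and the share over all genes was not computed.

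**Figure D1:**
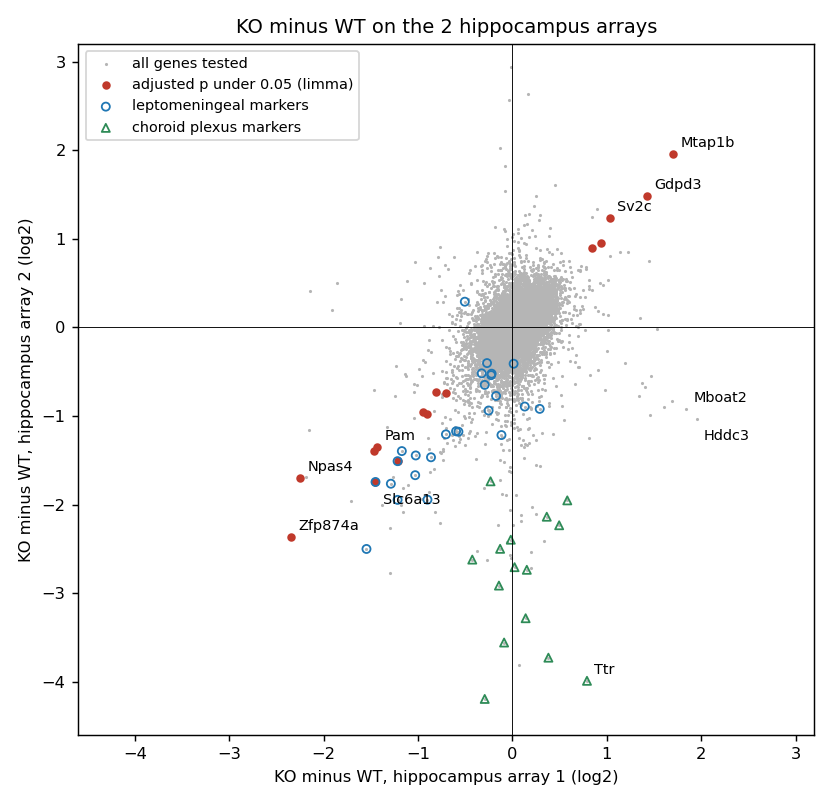
Each point is 1 of 19904 genes, with the KO minus WT log2 ratio of hippocampus array 1 on the horizontal axis and of array 2 on the vertical axis. The 15 genes that passed the test (filled) lie along the diagonal. The leptomeningeal markers (circles) lie mostly below 0 on both arrays, and the choroid plexus markers (triangles) run from -0.43 to 0.79 on array 1 and from -4.20 to -1.74 on array 2.

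Zfp874a had log2 levels of 9.38 and 9.29 in WT and 7.03 and 6.92 in KO. The KO signal was not well above background on either array. The ratios were -2.35 and -2.37, with a mean of -2.36 ± 0.06 (SE; adjusted p = 0.002 in limma), and the gene was at least 4.44-fold lower in KO. Its neighbour Zfp429, whose probe lies 51064 bases away, fell from 8.50 and 8.59 to 7.55 and 7.63 (ratios of -0.95 on both arrays). The zinc finger genes listed for chromosome 13 were mixed. Of 22 tested, 8 were above 0 on both arrays and 10 below, beside 42.1% above and 24.7% below over all genes, and the medians were -0.00 and -0.01. Zfp458 (-0.63 and -0.61) and Zfp712 (-0.50 and -0.54) lay on the low side, and Zfp87 (0.42 and 0.54) and Rsl1 (0.46 and 0.34) on the high side, none of them past the test.

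Mtap1b had levels of 11.84 and 11.61 in WT and 13.55 and 13.56 in KO. The mean ratio was 1.83 ± 0.08 (SE; adjusted p = 0.015 in limma), 3.55-fold higher in KO. This rests on 1 probe (chromosome 13, 100192506 to 100192565, mm9). The second probe for the gene gave -0.12 and 0.19, and the mean of both probes did not pass the test.

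Among genes that act in secretion, transport and metabolism, Pam, the enzyme that amidates neuropeptides, had levels of 11.02 and 11.07 in WT and 9.58 and 9.73 in KO, 2.62-fold lower. Trfr2, now Tfr2, a transferrin receptor that senses iron, had levels of 11.15 and 10.91 in WT and 9.68 and 9.52 in KO, 2.70-fold lower. Both were also below -1 on both cortex arrays. Fastkd3, a mitochondrial RNA-binding protein, was 1.92-fold lower, and its second probe gave -0.60 and -0.67. Pgam2, the muscle form of the glycolytic phosphoglycerate mutase, was 1.70-fold lower, and passed the test under 5 of the 15 alternatives run for single genes. The RIKEN transcript A430093F15Rik was not well above background in KO and was at least 1.65-fold lower.

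The other genes that rose were Gdpd3, a glycerophosphodiester phosphodiesterase, Sv2c, a synaptic vesicle glycoprotein, Gm15431, a predicted gene, and Gin1, which resembles the integrase of a retrotransposon. Gdpd3 had levels of 8.22 and 8.25 in WT, not well above background, and 9.64 and 9.72 in KO, at least 2.73-fold higher. Sv2c was likewise not well above background in WT, at 8.04 and 8.11, and had levels of 9.08 and 9.34 in KO, at least 2.19-fold higher. Its other 2 probes gave 0.30 and 0.27, and -0.23 and -0.21. Gm15431 was 1.93-fold and Gin1 1.83-fold higher, and the second Gin1 probe gave 0.21 and 0.24. With the mean of the probes well above background on both arrays in WT or in KO, neither Sv2c nor Gin1 passed limma's test. Sv2c was at 0.71 (adjusted p = 0.069), without its probe at -0.23 and -0.21, and Gin1 at 0.55 (adjusted p = 0.070).

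**Figure D2:**
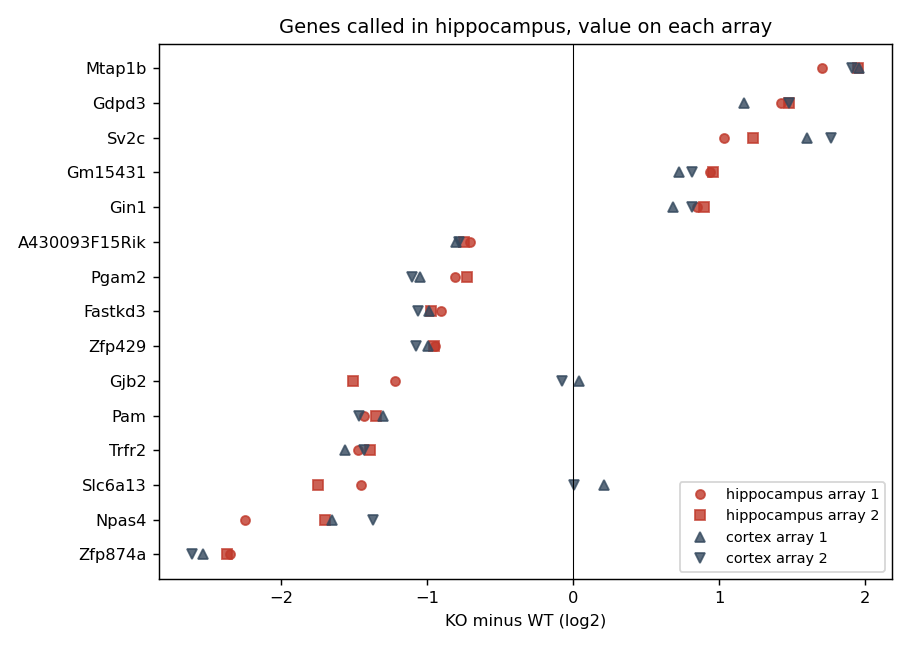
KO minus WT log2 ratio (horizontal axis) of the 15 genes that passed the test in hippocampus (vertical axis), with 1 symbol for each of the 2 hippocampus and 2 cortex arrays. Slc6a13 and Gjb2 are near 0 on both cortex arrays, and the other 13 lie on the same side of 0 on all 4 arrays.

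The number of genes called depended on the arrays and on the scaling. Without hippocampus replicate 2 the fit called 0 genes (3173 at an unadjusted p under 0.05), without hippocampus replicate 1 it called 15, of which 2 were among those above, and without 1 of the cortex arrays 6. Zfp874a and Mtap1b kept the call without hippocampus replicate 1, and these together with Gdpd3, Pam and Trfr2 without either cortex replicate, so that Slc6a13 and Gjb2 lost it whichever array was left out. A fit with no replicate block, which treats the 2 channels of an array as separate samples, called 108, including 14 of the 15. A block for the number shared by hippocampus and cortex arrays, chosen after seeing the data, called 1315 (6.61%), including all 15. Of the calls, 33.3% were higher in KO. That share was 82.1% of 563 calls with Feature Extraction's processed signals and 84.0% of 15649 calls with scanner signals centred on each array's median, where the median of all genes was 0.54 above 0.

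Across all tested genes, 13299 (66.8%) had the same sign on both hippocampus arrays, with 8381 (42.1%) higher and 4918 (24.7%) lower in KO. The ratios had an SD of 0.20 on array 1 and 0.28 on array 2, and r = 0.39 across genes, which are not independent replicates. Ratios beyond 1 on both arrays were found for 3 genes higher (0.0151%) and 25 lower (0.126%), and beyond 0.5 for 38 higher (0.191%) and 116 lower (0.583%). Of the 38 rises, 14 had a dim WT signal and entered the test through KO alone, as did Gdpd3 and Sv2c among the 3 beyond 1. Of the 116 falls, 2 had a dim KO signal and entered through WT alone. With probes well above background in every hippocampus sample, 1 gene was higher and 24 were lower beyond 1. The excess of falls beyond 1 depended on the scaling, with 13 genes higher and 41 lower after loess, 15 higher and 947 lower with median centring, relative to all genes, but 510 higher and 107 lower with Feature Extraction's processed signals.

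The 25 genes below -1 on both arrays divide by what the cortex arrays showed. On those, 7 were also below -1 on both arrays, 13 lay within 0.5 of 0 on both, and 5 met neither limit. The 7 are Zfp874a, Npas4, Trfr2, Pam, Serpina3n, Evpl and Prune2. Serpina3n, a secreted protease inhibitor known from reactive astrocytes, had levels of 13.38 and 12.48 in WT and 11.18 and 10.80 in KO (mean ratio -1.94 ± 0.17 SE; adjusted p = 0.061 in limma). Evpl, the cell-junction protein envoplakin, had ratios of -1.38 and -2.004. Prune2 had -1.26 and -1.69 at its brightest probe, but 2 of its other 3 probes were above 0 on both arrays. Of the 13 genes within 0.5 in cortex, 8 are on the list of leptomeningeal markers, and the others include Pcolce, which promotes collagen maturation (-1.30 and -2.27), the transcription factor Zic1 (-1.30 and -2.77, and -0.15 and -0.48 at a second probe), Tagln of smooth muscle (-1.16 and -2.08) and Igh-VJ558, of the immunoglobulin heavy chain (-1.71 and -1.96). Just outside the limit of -1 lay Fmod (-0.90 and -1.95) and Serpina1c (-0.96 and -1.94).

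Most transcripts of leptomeningeal cells were at lower levels in KO. Of 28 listed markers 25 were tested, and 21 were below 0 on both arrays and 0 above, beside 24.7% below and 42.1% above over all genes. The medians were -0.57 on array 1 and -1.18 on array 2, beside 0.04 on both for all genes. Of the 25, 2 fell past the test, Slc6a13 and Gjb2 (0.0502% of all genes did), and 13 (52.0%) were below -0.5 on both arrays, beside 0.583% of all genes. In 20 of the 25, both KO samples lay below both WT samples, as in 18.1% of all genes. This list was chosen with earlier results of these data known. Neither these shares nor those given for it below are therefore independent evidence.

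Slc6a13 had log2 levels of 11.34 and 12.03 in WT and 9.89 and 10.28 in KO. The mean ratio was -1.60 ± 0.10 (SE; adjusted p = 0.030 in limma), a 3.03-fold fall. Gjb2 had levels of 10.95 and 11.51 in WT and 9.73 and 9.995 in KO, a 2.57-fold fall with the same adjusted p of 0.030 in limma. In both genes WT2 was the highest sample and KO1 the lowest.

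Among the markers that did not pass, Ptgds, the prostaglandin D synthase secreted into cerebrospinal fluid, had levels of 17.41 and 17.74 in WT and 16.24 and 16.35 in KO. The sulfate transporter Slc13a4 had 11.90 and 13.84 in WT and 10.35 and 11.34 in KO. The collagen gene Col1a2 had 11.27 and 12.22 in WT and 10.05 and 10.28 in KO. In each, both KO samples lay below both WT samples, as in 18.1% of all genes, and WT2 was above WT1. Aldh1a2, which makes retinoic acid, had ratios of -1.29 and -1.77, the matrix protein Mgp -1.03 and -1.67, and the organic anion transporter Slc22a6 -1.03 and -1.45. Dcn, a small proteoglycan that CA1 neurons also express, was an exception with -0.51 and 0.29.

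On the cortex arrays the medians of the leptomeningeal markers were 0.38 and 0.09. The difference between tissues was -1.71 ± 0.14 (SE) for Slc6a13 and -1.34 ± 0.12 for Gjb2, each with an adjusted p of 0.798 in limma. An unadjusted p under 0.05 for that difference was found in 21 of the 25 markers, beside 3.62% of all genes. A dye effect equal on all arrays cancels in this contrast. Over all genes, limma called 0 genes (0%) in it, and 721 had an unadjusted p under 0.05. This fit does not pair the tissues by number, since the labels do not say that tissues of one number come from the same animal, and the count depends on that choice. With the number as a block, chosen after seeing the data, limma called 15 genes (0.0754%), all lower in hippocampus, and 10 of them are among the 25 markers. Slc6a13 had an adjusted p of 0.007 and Gjb2 of 0.016 in that limma fit.

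The mean log2 level of the 25 markers was 10.39 and 11.09 in the WT and 9.77 and 9.96 in the KO hippocampus samples, and from 10.42 to 10.73 in the 4 cortex samples. In bulk tissue, fewer cells of a type and less RNA per cell cannot be told apart. WT2, with the highest level, was also the sample with most choroid plexus transcript. On array 1, where the choroid plexus median was 0.02, the leptomeningeal median was -0.57.

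**Figure D3:**
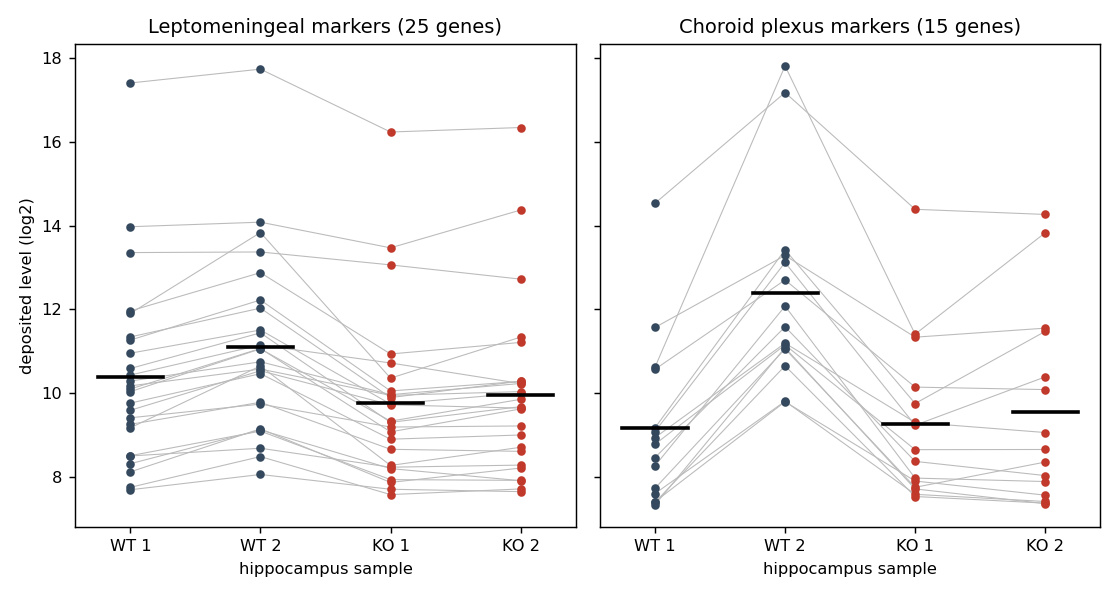
Deposited log2 level (vertical axis) in each hippocampus sample (horizontal axis) of the 25 leptomeningeal and the 15 choroid plexus markers tested. Each point is a gene, grey lines join a gene across samples and black bars are the mean. Leptomeningeal means are 10.39 and 11.09 in WT and 9.77 and 9.96 in KO, whereas all 15 choroid plexus transcripts are highest in WT2.

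Choroid plexus epithelium gave the largest difference of any list, on 1 array. Ttr, the transthyretin made by this epithelium, had levels of 10.61 in WT1, 17.82 in WT2, 11.40 in KO1 and 13.83 in KO2. Kcnj13, a potassium channel, had 8.26, 12.08, 7.96 and 7.88, and the ageing suppressor Kl 10.57, 12.70, 10.14 and 10.08, in the same order. The median of the 15 tested markers was 0.02 on array 1 and -2.71 on array 2, none passed the test, and without hippocampus replicate 2 the median was 0.02. On the cortex arrays it was 0.52 and 1.68. Thalamic and habenular markers had medians of -0.03 and -0.75, and the slow troponin Tnnt1 had 10.43 in WT1, 12.59 in WT2, 10.30 in KO1 and 10.86 in KO2.

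Vessel and smooth muscle genes were lower on both arrays in 17 of 22 markers and higher in 2, beside 24.7% and 42.1% of all genes. Their medians were -0.16 and -0.51, and none passed the test. Among contractile genes, Tagln had levels of 11.99 and 12.55 in WT and 10.83 and 10.47 in KO, Myl9 had ratios of -0.74 and -1.39, Acta2 of -0.69 and -1.31, and Cnn1 of -0.70 and -1.14. Endothelial Cldn5, of the blood-brain barrier, had -0.62 and -0.70, whereas Pecam1 had -0.02 and -0.04.

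Genes of the major histocompatibility complex, which encode antigen-presenting proteins, were lower on both arrays in 16 of 19 tested and higher in 1. Over all genes, 24.7% were lower and 42.1% higher. The medians of these 19 genes were -0.24 and -0.44, and none passed the test. The class I gene H2-T23 had levels of 11.62 and 11.84 in WT and 10.88 and 11.10 in KO, and H2-Q2 had ratios of -0.63 and -0.80. The class II gene H2-Ab1 had -0.55 and -1.26. Cd74, the invariant chain that class II proteins need, is encoded elsewhere and had -0.74 and -1.50. Class II levels varied within each genotype, with H2-Ab1 at 9.10 and 10.97 in WT and 8.55 and 9.70 in KO, so these samples overlap. Near-identical H2 genes can share probe signal. The part of leptomeningeal or choroid plexus content in the vessel and histocompatibility values was not tested.

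Immediate-early genes were lower more often than higher. Of 41 listed, 40 were tested, with 23 below 0 on both arrays and 9 above, beside 24.7% and 42.1% of all genes, and medians of -0.09 and -0.25. Npas4, a transcription factor induced by calcium entry in neurons, was the only one of the 40 that fell past the test. It had log2 levels of 12.26 and 11.89 in WT and 10.01 and 10.20 in KO. The mean ratio was -1.97 ± 0.15 (SE; adjusted p = 0.046 in limma), a 3.92-fold fall, and the cortex arrays gave -1.65 and -1.37. The call was made under 7 of the 15 alternatives run for single genes, with the adjusted p between 5.2e-05 and 0.291, and it was lost whenever any 1 array was left out.

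The other members of the list below -0.5 on both arrays were Fos, Arc, Egr2, Egr4 and Btg2, so that 6 of 40 (15%) passed this limit, beside 0.583% of all genes. Fos, a subunit of the AP-1 factor, had levels of 10.27 and 10.87 in WT and 9.38 and 9.62 in KO. Arc, which acts at synapses in the removal of glutamate receptors, had 14.67 and 15.12 in WT and 14.16 and 14.12 in KO. The zinc finger factor Egr4 had 12.99 and 13.15 in WT and 12.33 and 12.57 in KO. For these 3, both KO samples were below both WT samples, as in 18.1% of all genes, with adjusted p from 0.095 to 0.131 in limma. Egr2 had ratios of -0.96 and -0.55, and Btg2, an antiproliferative factor, -0.66 and -0.69. The orphan nuclear receptor Nr4a2 had -0.35 and -0.23, with 0.14 and 0.13 at its second probe. Npas4, Fos, Arc, Egr2, Egr4 and Nr4a2 are genes the study itself followed up, so their shared direction is not independent evidence. Of the 6 below -0.5, all but Btg2 are among them, so the share of 15% is not independent evidence. Nor is the count of 23 of 40 below 0.

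**Figure D4:**
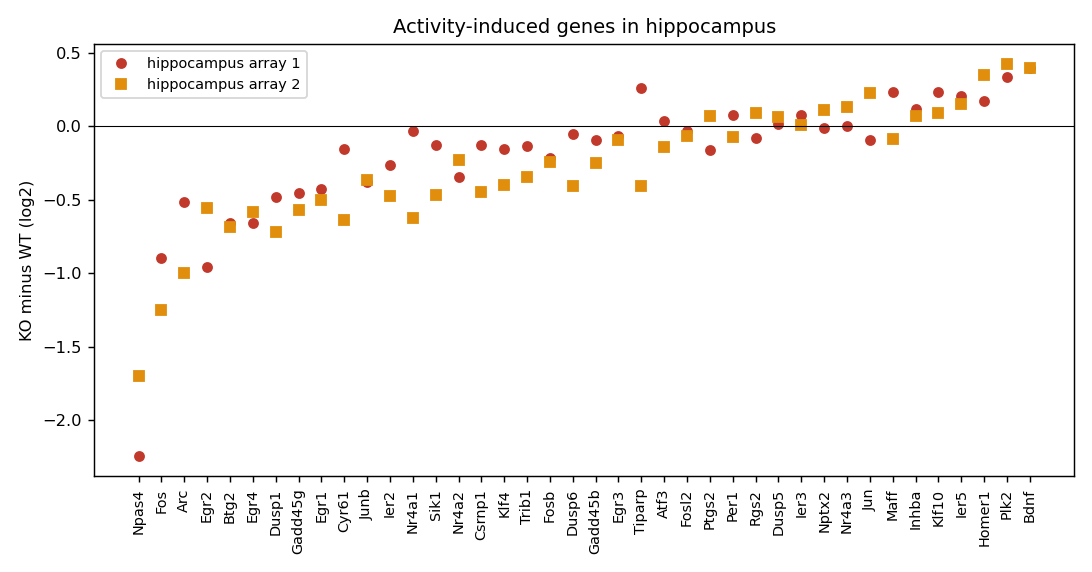
KO minus WT log2 ratio (vertical axis) of the 40 immediate-early genes tested (horizontal axis, ordered by the mean of both arrays), with 1 symbol for each hippocampus array. The ratios run from -2.25 for Npas4 on array 1 to 0.43 for Plk2 on array 2, and Bdnf has 0.40 on both arrays.

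Of the 9 genes above 0 on both arrays, Bdnf, the neurotrophin that NPAS4 and CREB activate, had levels of 11.32 and 11.44 in WT and 11.72 and 11.83 in KO (mean ratio 0.40 ± 0.10 SE; adjusted p = 0.120 in limma). The kinase Plk2 had ratios of 0.34 and 0.43, and the scaffold Homer1 0.17 and 0.35. Jun had -0.09 and 0.23, and Nr4a1 -0.03 and -0.62. Of 8 tested neurotrophins and receptors, 3 were above 0 on both arrays and 2 below, beside 42.1% and 24.7% of all genes.

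The promoters of 3 of these genes are shown because neuronal activity acts on them through CREB, which binds the cyclic AMP response element. RefSeq windows from 250 bases before to 50 after the start of transcription (GRCm38.p6) are printed 5′ to 3′, with the half-site of that element, TGACG on either strand, in capitals. They are Npas4 at chr19:4989922-4990221 (minus strand), Fos at chr12:85473640-85473939 (plus strand) and Egr4 at chr6:85513540-85513839 (minus strand).
Npas4: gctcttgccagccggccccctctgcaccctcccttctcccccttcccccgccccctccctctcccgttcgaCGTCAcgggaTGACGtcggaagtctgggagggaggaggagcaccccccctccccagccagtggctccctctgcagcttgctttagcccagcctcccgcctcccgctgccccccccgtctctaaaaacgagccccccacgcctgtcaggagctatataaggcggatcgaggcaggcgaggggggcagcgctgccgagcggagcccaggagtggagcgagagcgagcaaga
Fos: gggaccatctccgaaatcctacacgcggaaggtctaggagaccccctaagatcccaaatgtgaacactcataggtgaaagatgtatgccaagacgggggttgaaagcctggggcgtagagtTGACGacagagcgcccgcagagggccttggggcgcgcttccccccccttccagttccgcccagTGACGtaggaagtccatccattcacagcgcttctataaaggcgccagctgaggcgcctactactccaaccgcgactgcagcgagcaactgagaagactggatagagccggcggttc
Egr4: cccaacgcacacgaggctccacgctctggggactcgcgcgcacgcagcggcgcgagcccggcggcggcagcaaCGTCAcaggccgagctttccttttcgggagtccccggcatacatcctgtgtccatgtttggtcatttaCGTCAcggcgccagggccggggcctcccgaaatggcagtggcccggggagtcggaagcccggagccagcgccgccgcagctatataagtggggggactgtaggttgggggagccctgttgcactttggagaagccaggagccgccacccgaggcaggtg
Each window holds 2 half-sites, and 20.8% of the 32851 promoter windows of the table hold at least 1. The full element, TGACGTCA, is in none of the 3 and in 1.79% of all windows. The CArG box, to which the serum response factor binds, is in none of the 3 and in 1.63% of all windows. A match describes the letters in this window only.

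Feedback inhibitors of the ERK pathway, which activity also induces, were above 0 on both arrays in 7 of 12 and below in 1. The shares over all genes were 42.1% above and 24.7% below. Spry2 was not well above background in WT, at 8.26 and 8.46, and had 9.10 and 9.70 in KO, at least 2.06-fold higher (adjusted p = 0.075 in limma). Spry1 had ratios of 0.32 and 0.19, Rasa1, a Ras GTPase activator, 0.25 on both, and Dusp6 -0.05 and -0.41.

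Calcium and cyclic AMP kinases, phosphatases and CREB regulators were above 0 on both arrays in 16 of 32 and below in 5, glutamate receptor subunits in 10 and 5 of 23, and voltage-gated potassium channels in 12 and 4 of 29. None of these passed the test, beside 42.1% above and 24.7% below over all genes. The AMPA receptor subunit Gria2 had 0.34 and 0.43, the NMDA receptor subunit Grin3a 0.28 and 1.21, and the A-type channels Kcna4 0.32 and 0.50 and Kcnd2 0.30 and 0.25. Synaptic vesicle proteins were above 0 on both arrays in 5 of 24 and below in 4, and 1, Sv2c, passed the test. The vesicle protein Synpr had 0.17 and 0.44, the SNARE protein Vamp2 -0.57 and -0.30 and complexin Cplx1 -0.37 and -0.40.

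Neuropeptide genes were above 0 on both arrays in 14 of 26 and below in 5, beside 42.1% and 24.7% of all genes. None of them passed the test. Cortistatin (Cort) had levels of 11.60 and 11.63 in WT and 12.11 and 12.37 in KO, and the peptide-binding protein Crhbp ratios of 0.40 and 0.54. Cartpt had 0.39 and 1.03, and Trh -0.01 and 2.94, so their size rests on array 2. Tac1, which encodes substance P, had 0.39 and 0.23 in hippocampus and -0.53 and -0.37 in cortex. The difference between tissues was 0.76 ± 0.11 (SE; adjusted p = 0.798 in limma).

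Among the hippocampal fields, 6 of 14 dentate granule cell markers were above 0 on both arrays and 1 below, beside 42.1% and 24.7% of all genes, with medians of 0.04 and 0.23. The desmosomal protein Dsp had levels of 10.98 and 10.78 in WT and 11.59 and 11.22 in KO, the guidance molecule Sema5b ratios of 0.33 and 0.38, and Prox1, the factor that specifies granule cells, 0.20 and 0.41. Markers of CA2 and CA3 neurons were below 0 on both arrays in 7 of 12 and above in 3, and those of CA1 in 4 of 8 and above in 0, with Wfs1 at 14.26 and 14.25 in WT and 13.98 and 13.998 in KO. No marker of these fields passed the test. Relative to the median of all genes after median centring, the CA1 median turned from -0.11 to 0.04 and that of CA2 and CA3 from -0.13 to 0.13.

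Glial lists were mixed. For comparison, 42.1% of all genes were above 0 on both arrays and 24.7% below. Microglial and complement markers were above 0 on both arrays in 4 of 21 and below in 7, among them C1qa (-0.38 and -0.54) and, in the other direction, the Fc receptor-like Fcrls, at 9.67 and 9.68 in WT and 10.40 and 10.37 in KO (adjusted p = 0.051 in limma). Oligodendrocyte markers had medians of 0.07 and -0.41. Astrocyte markers had medians of 0.02 and -0.14, with 3 of 17 above 0 on both arrays and 6 below. Gfap had -0.38 and -1.19, whereas Aldoc had 0.40 and 0.20 and Slc1a3 0.28 and 0.13. Relative to all genes after median centring, the medians of the microglial and astrocyte lists turned to 0.10 and 0.18. Serpin clade A inhibitors, which lie together on chromosome 12, had 6 of 11 tested below 0 on both arrays, 5 of them below -0.5. Serpina3i had ratios of -2.15 and -1.16, Serpina1a of -1.18 and -2.01 and Serpina1e of -0.77 and -1.41, whereas Serpina3h had 0.35 and 0.27. The Serpina1 genes are near-identical and can share probe signal.

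**Figure D5:**
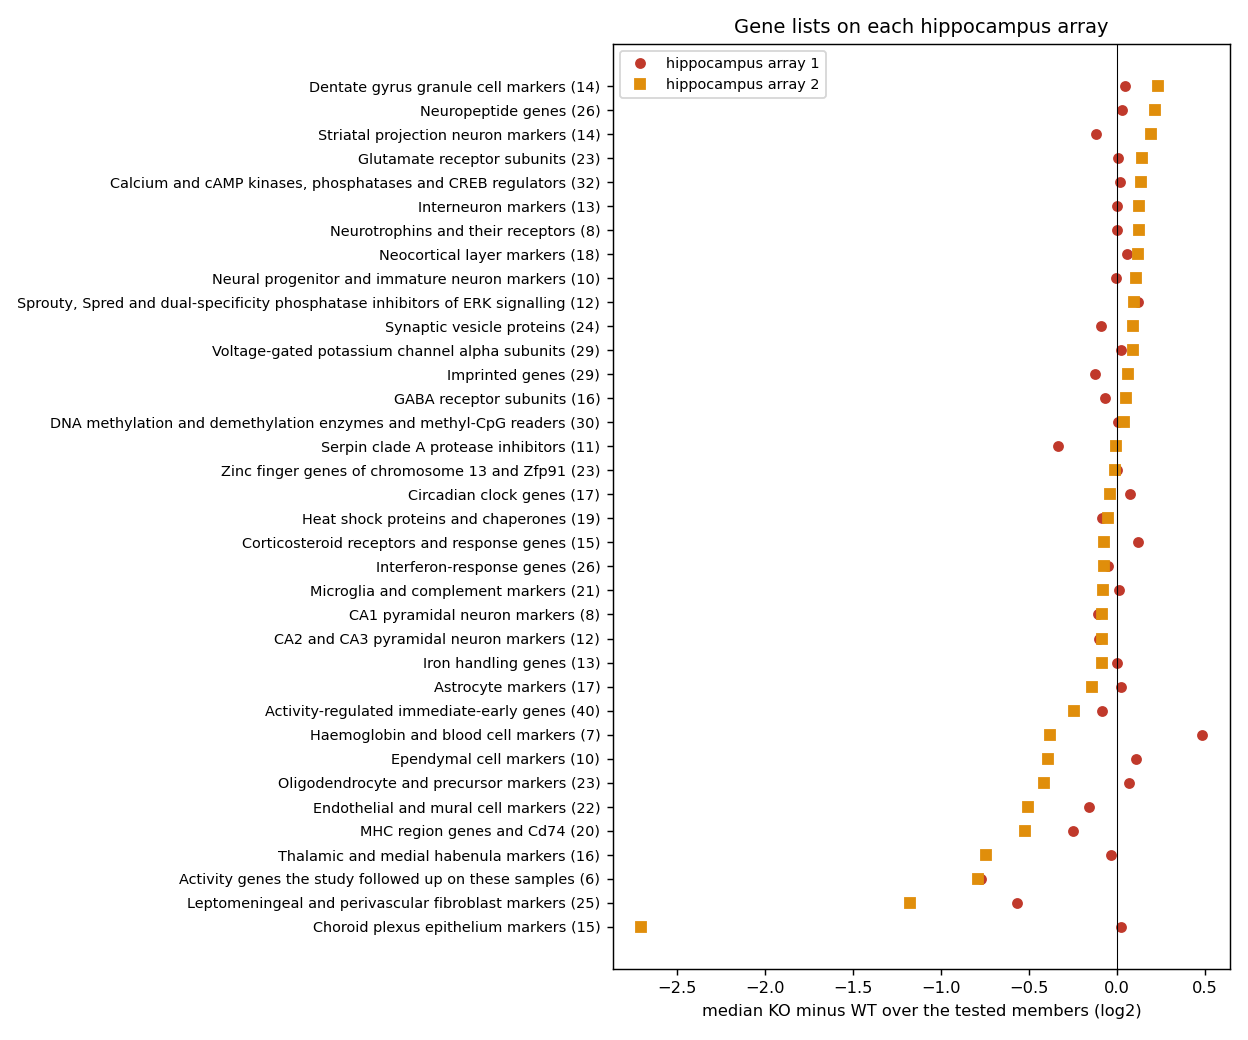
Median KO minus WT log2 ratio over the tested members (horizontal axis) of each of 36 gene lists (vertical axis, number tested in brackets), with 1 symbol for each hippocampus array. Leptomeningeal markers are at -0.57 and -1.18, and choroid plexus markers at 0.02 and -2.71.

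The remaining genes with the largest rises on both arrays did not pass the test. They include Rnase4, a secreted ribonuclease (1.14 and 0.85), Erdr1 (1.04 and 0.80) and Prim2 of the DNA primase (0.69 and 0.65). Mctp1 had 0.77 and 0.66, and 0.20 and 0.22 at its second probe. Mtrr, which reactivates methionine synthase (0.77 and 0.68), and Arsk, a lysosomal sulfatase (1.45 and 0.75), were not well above background in WT. The second Arsk probe gave -0.56 and -0.17.

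Several genes with large ratios lie next to each other, by probe position in mm9. Gin1, higher in KO, and Pam, lower, are 43855 bases apart on chromosome 1. Mtrr, higher, and Fastkd3, lower, are 31317 bases apart on chromosome 13. Trfr2 and Pcolce, both lower, are 17631 bases apart on chromosome 5, and Slc6a13 and Slc6a12, both lower, 27885 bases apart on chromosome 6. Ratios beyond 0.5 on both arrays were found for 1.77% of the tested genes of chromosome 12 and 1.66% of chromosome 13. The share was 1.23% for chromosomes 17 and 19 and 1.15% for chromosome 1, beside 0.765% over all chromosomes. How many such neighbours would be expected was not tested.

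Some genes changed side between the arrays. Hddc3 had levels of 9.58 in WT1 and 11.53 in KO1, but 10.41 in WT2 and 9.38 in KO2, and Mboat2, a lysophospholipid acyltransferase, had 10.27 and 12.11, but 11.26 and 10.34. For these genes the same reversal was found on the cortex arrays of the same numbers, with 1.93 and -1.11 for Hddc3 and 1.80 and -1.06 for Mboat2. It was not general among the 6 genes with the largest ratios of opposite direction. Fzd10 had 0.62 and -0.18 in cortex. The predicted genes among the 6 did not reverse there, with 1.23 and 0.43, 1.42 and 0.49, and 1.34 and 0.61. Across genes, the difference between the arrays of number 1 and number 2 had r = 0.24 between the tissues, as a description.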

How the data were processed

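The deposited value table holds log2 levels of each channel, made by the authors. Limma is named in the submitters' processing notes, but its role and the background correction are not given in these sources. Its column medians were 8.21 to 8.25, and its hippocampus log ratios had r = 0.940 and 0.954 with loess ratios computed from the scanner files. Those files hold deposited intensity values from Feature Extraction 10.1.1.1 with mm9 probe positions, per the file headers, and the files of each same-numbered WT and KO pair were byte-identical, so that the number pairs 2 channels of an array.

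The 1377 control spots of 44397 were left out, spots of 1 probe averaged, and 29 gene names with an outlying spot dropped. KO minus WT ratios of all 4 arrays were fitted in limma 3.58.1 (R 4.3.3) with 1 mean per tissue (2 residual and 3.20 prior degrees of freedom) and adjusted by Benjamini-Hochberg over all genes, and the contrast of hippocampus minus cortex was tested. The script was tested on simulated data. A gene not well above background in a group has a bound there. It is the higher of the gene's own level and that of the dimmest probe well above background in the same sample. For Gdpd3, Sv2c, Spry2 and A430093F15Rik the gene's own level was the higher, so the fold given as a bound equals the observed one. RefSeq (GRCm38.p6) matched 14669 genes, for names only, and promoters came from its table.

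Named genes are those called, the 15 largest rises and falls of 1 direction on both arrays, the 6 largest of opposite direction, Tet1 to Tet3, the followed-up genes, and up to 4 members of each list beside cell type markers. Dusp6, Homer1, Jun, Nr4a1, Plk2, Rsl1, Serpina1e, Serpina3h, Slc6a12, Trh and Zfp87 were chosen after their values were seen. Members and lists were chosen with earlier results of these data known. The alternatives are scanner signals with normexp (offset 50) and loess (span 0.3), Feature Extraction's processed signals, median centring, other filters, probes and fits, no replicate block, each array left out and, added after the data were seen, genes named by a symbol only and the number shared by the tissues as a block.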

Additional observations from a re-analysis of the deposited data

Results flagged for a closer look

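The median difference of the leptomeningeal markers, hippocampus minus cortex, was -1.11 on the log2 scale, and that of the CA1 markers -0.17. In both lists the median was below 0 on each hippocampus array and above 0 on each cortex array. The difference between tissues of either median was not tested. For the CA1 markers the hippocampus median turned to 0.04 after median centring.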

How the results depend on the processing

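The number of genes called in hippocampus was 15 as reported. It was 563 with Feature Extraction's processed signals, 15649 with median centring, 8 with the strict filter on dim probes, 81 with no filter, 8 with the mean of probes, 6 with the hippocampus arrays alone, 68 with an intensity trend and robust estimation, and 108 with no replicate block. Leaving out 1 array at a time gave from 0 to 15, and the same setting gave 0 to 2 calls for the hippocampus minus cortex difference, which had 66 with median centring and 0 under the other planned settings. A replicate block shared by the tissues, added after seeing the data, called 15 genes for that difference (1075 at an unadjusted p under 0.05). With this block 1315 genes were called in hippocampus (790 higher and 525 lower), including all 15 reported. It leaves 1 residual degree of freedom, and the labels do not tie the numbers of the tissues to one animal. A left-out cortex array leaves the other with no spread of its own, so that fit equals the one with the hippocampus arrays alone. The share of genes with the same sign on both arrays was 66.1% with loess, 65.7% with processed signals, 84.7% with median centring, 65.0% with the strict filter and 68.5% with no filter. The leptomeningeal median was -1.39 with processed signals and -1.34 relative to all genes with median centring, and from -1.18 to -0.57 with 1 hippocampus array left out. Tet3 turned to -0.61 with median centring, relative to all genes, and to -0.0037 with the mean of probes. Of 605 values of 41 named genes under the alternatives, 465 kept their direction and side of the threshold, 75 lost the call, 63 gained it and 2 turned. The cause of these differences was not tested. Loess called 12 genes, 10 of them among the 15. Weak WT signal limits what can be measured as lower in KO or as a fold against WT.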
